A study of Mus musculus with 7 samples.

Results

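The genes described here are 10 imprinted genes of growth and fat development: Mest, Nnat, Ndn, Peg3, H19, Dlk1, Meg3, Plagl1, Magel2 and Asb4. They were chosen by name with the differences between knockout and wild-type arrays already known, Mest having stood among the largest falls, so the values of this comparison are given for them as a description. The array held 35 probe sets for them, and 31 of these passed the filter on dim probe sets, out of 27022 tested probe sets that named 13102 genes. The 4 that did not pass were 2 of Peg3, 1 of Meg3 and 1 of Asb4. The only probe set of H19 is paired in the probe table with both H19 and Mir675, the microRNA gene that lies within it.

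Brown fat came from male pups of the C57BL/6J strain at 3 days of age. The KO group (4 arrays, replicates 1 to 4) carried a knockout of Gyk, the X-linked gene of glycerol kinase, the enzyme that phosphorylates glycerol. The WT group (3 arrays, replicates 1, 3 and 4) was wild type and served as control. The labels do not say how the allele was made or whether animals were pooled. Gyk itself is not analysed here. Total RNA had been hybridised 1 sample to an array, and array medians lay between 131.2 and 153.7 signal units.

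Imprinted genes are expressed mainly from 1 parental copy, which often depends on methylation marks set in the germ line. Many are active in the fetus and newborn and decline as growth slows. In adipose tissue Dlk1 marks precursor cells and restrains their differentiation, while Mest is known from mice as a gene of fat tissue growth. Mest, Nnat, Ndn, Magel2, Peg3, Dlk1 and Plagl1 are expressed from the paternal copy, and H19, Meg3 and Asb4 from the maternal one. In GRCm38.p6 the RefSeq table places Mest at chr6:30733506-30748466, Asb4 at chr6:5383386-5433022, Nnat at chr2:157560078-157562525 and Plagl1 at chr10:13090832-13131694. Ndn (chr7:62348277-62349928) and Magel2 (chr7:62376979-62381640) are neighbours, while Peg3 (chr7:6703892-6730462) and H19 (chr7:142575530-142578146) lie elsewhere on that chromosome. Dlk1 (chr12:109452485-109463336) and Meg3 (chr12:109540996-109571729) share a cluster. H19 and Meg3 are annotated as long noncoding RNAs and the other 8 as protein coding. The arrays read total transcript and could not tell the copies apart. Fewer cells of a type and less RNA per cell also cannot be told apart in such a tissue extract.

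One array stood apart. On the first principal component (35.3% of the variance) KO replicates 1, 3 and 4 scored between -35.7 and -33.4 and the WT arrays between 23 and 33.3, while the array labelled KO replicate 2 scored 13.8. Its closest array was WT replicate 1 (r = 0.975 across probe sets). The 3 probe sets of Xist, the noncoding RNA that coats an inactive X, were each highest on it, at 93 to 2756.7, and read at most 272.7 on the others, although every sample was labelled male. Results are therefore given with and without this array. The deposited accessions also form 2 consecutive runs, here called deposit blocks, which the second component (16.4%) separated: KO replicates 1 and 2 with WT replicate 1, and KO replicates 3 and 4 with WT replicates 3 and 4. The labels do not say what the runs are.

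The starts of Mest, Nnat and Ndn, the genes that fell, are shown with that of Peg3, which read higher, so that their letters can be compared. Each line gives the 200 bases before the annotated start of transcription, 5′ to 3′ on the gene's strand, from RefSeq (GRCm38.p6), with CpG dinucleotides, the bases that carry methylation marks, in capitals. For Mest, the downstream of its start regions is shown. The stretches are chr6:30737853-30738052 (plus strand) for Mest, chr2:157559878-157560077 (plus) for Nnat, chr7:62348077-62348276 (plus) for Ndn and chr7:6730420-6730619 (minus) for Peg3.
Mest: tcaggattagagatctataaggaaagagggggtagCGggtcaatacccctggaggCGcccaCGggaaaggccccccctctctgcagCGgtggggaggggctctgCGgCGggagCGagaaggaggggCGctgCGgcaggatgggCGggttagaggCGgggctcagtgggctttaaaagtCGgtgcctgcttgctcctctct
Nnat: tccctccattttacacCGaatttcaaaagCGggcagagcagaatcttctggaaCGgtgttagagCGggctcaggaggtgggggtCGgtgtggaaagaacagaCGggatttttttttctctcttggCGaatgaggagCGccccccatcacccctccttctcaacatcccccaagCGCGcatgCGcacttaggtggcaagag
Ndn: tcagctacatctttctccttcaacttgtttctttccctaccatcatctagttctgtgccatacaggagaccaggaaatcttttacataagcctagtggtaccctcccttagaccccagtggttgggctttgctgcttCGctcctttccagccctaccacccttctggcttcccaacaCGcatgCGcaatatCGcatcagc
Peg3: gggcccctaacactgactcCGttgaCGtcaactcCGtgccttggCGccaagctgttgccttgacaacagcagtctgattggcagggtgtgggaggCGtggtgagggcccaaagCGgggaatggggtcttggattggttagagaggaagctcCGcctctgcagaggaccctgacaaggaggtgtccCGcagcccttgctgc

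These stretches held 12 CpG in Mest, 11 in Nnat, 4 in Ndn and 8 in Peg3. Over the full 300-base window, 250 before to 50 after the start, the counts were 17, 17, 11 and 13, against a median of 7 over 32851 such windows of the table. Of all windows 68.6%, 68.6%, 58.6% and 62.1% held fewer CpG than these. The upstream start region of Mest, not shown, held 8. The other members ranged from 26 CpG in Plagl1 to 1 in the second window of Meg3, and H19 was not matched. Of 5 motifs searched on both strands, GCATGCGC, the core of the NRF1 site, was found in Nnat (overlapping matches, 1 on each strand) and Ndn (1 match) and in 2.71% of all windows. It was added after the windows had been read. GGGGCCCC, a core of the site bound by PLAGL1, the product of Plagl1, was found in Peg3 alone among the members (1.08% of all windows). TATAAA lay in the windows of Meg3 and Magel2 (13.6% of all). AGAACA, a glucocorticoid receptor half-site, lay in that of Nnat (19% of all), and the YY1 motif GCCATNTT in none of the members' windows (6.05% of all).

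Mest, H19 and Meg3 are also hosts of microRNAs, which these probe sets do not read as mature molecules. The mature sequences (RefSeq, GRCm38.p6) are shown with the seed, bases 2 to 8, in capitals, since no 2 of these 7 share a seed.
mmu-miR-335-5p: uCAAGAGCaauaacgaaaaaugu
mmu-miR-335-3p: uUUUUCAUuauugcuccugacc
mmu-miR-675-5p: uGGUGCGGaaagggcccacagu
mmu-miR-675-3p: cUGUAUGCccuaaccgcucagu
mmu-miR-770-5p: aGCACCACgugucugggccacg
mmu-miR-770-3p: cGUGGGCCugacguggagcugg
mmu-miR-1906: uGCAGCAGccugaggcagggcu
The miR-335 pair lies inside Mest, the miR-675 pair inside H19, and miR-770 and miR-1906 inside Meg3.

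Mest, Nnat and Ndn fell in KO brown fat, Peg3 read higher without passing, and H19, Dlk1 and Meg3 read within about the spread of the arrays. Across the 31 tested probe sets, 3 fell and 0 rose at an adjusted p under 0.05 (limma, Benjamini-Hochberg over all 27022), 1 each of Mest, Nnat and Ndn. Of all tested probe sets 1.59% passed in either direction and 0.644% as lower in KO. Nothing is read from that contrast, since the members were chosen with it known. At an unadjusted p under 0.05, 9 were lower and 3 higher, where 16.5% of all tested probe sets passed in either direction. KO and WT arrays did not overlap in 6 of the 31, as in 14.7% of all tested. The median log2 difference (KO minus WT) was -0.11 over the 31 and 0.00 over all probe sets tested. Without the array labelled KO replicate 2, 7 fell and 1 rose, where 7.35% of all tested passed.

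**Figure D1:**
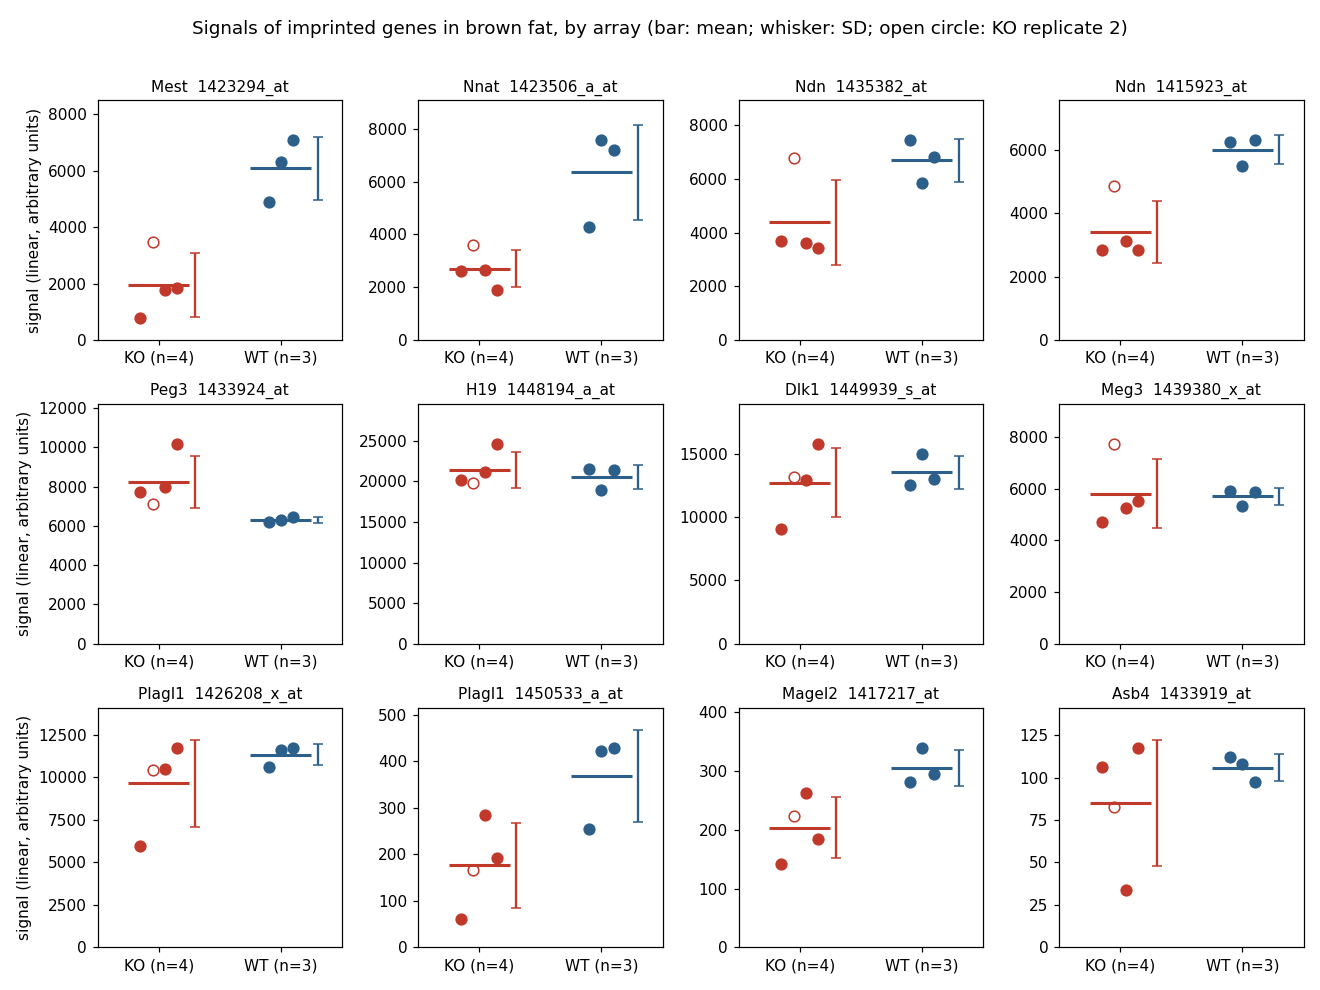
Signal intensity (linear axis from 0, arbitrary units) on each KO array (left, red, open circle for replicate 2) and WT array (right, blue) for the brightest probe set of each of the 10 genes and 1 further probe set each of Ndn and Plagl1. Bars are means and whiskers SDs. On Mest, Nnat, Ndn 1415923_at and Magel2 all KO arrays lie below all WT arrays, and on Peg3 all lie above. The other panels overlap.

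Mest encodes an enzyme-like protein of the alpha/beta hydrolase fold in the endoplasmic reticulum. Its probe set 1423294_at read 771.8, 3482.5, 1761.4 and 1833.1 in KO replicates 1 to 4, against 4887.4, 6291.6 and 7073 in WT replicates 1, 3 and 4. Every KO array lay below every WT array, the lowest being KO replicate 1 and the highest of the KO arrays replicate 2. The mean was 1962 ± 1120 in KO (SD, n = 4) and 6084 ± 1110 in WT (n = 3), a 3.45-fold fall (log2 difference -1.79 ± 0.37, SE, adjusted p = 0.045, limma). Of all tested probe sets, 0.0481% had a lower log2 difference. Without KO replicate 2 the difference was -2.12 (adjusted p = 0.00302). Within the deposit blocks it was -1.55 in the first (2 KO arrays against 1 WT array, no test) and -1.87 in the second (2 against 2, adjusted p = 0.00189).

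Nnat encodes neuronatin, a small membrane proteolipid of the endoplasmic reticulum, and lies inside an intron of Blcap. The probe set 1423506_a_at read 2628.1, 3607.1, 2657.5 and 1896.8 in KO replicates 1 to 4, against 4295.7, 7553.3 and 7208.9 in the WT arrays. The groups did not overlap, but the nearest pair, KO replicate 2 and WT replicate 1, were of the same deposit block. The means were 2697 ± 701 in KO and 6353 ± 1790 in WT, 2.33-fold lower in KO (log2 difference -1.22 ± 0.23, adjusted p = 0.034). Without KO replicate 2 the difference was -1.37 (adjusted p = 0.00561, limma). It was -0.48 in the first deposit block and -1.70 in the second (adjusted p = 0.00564). Blcap, whose transcript surrounds it, read 4099 ± 419 in KO and 4146 ± 268 in WT (-0.02 ± 0.11, adjusted p = 0.956).

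Ndn encodes necdin, a MAGE family protein that restrains cell division and, in mice, the formation of fat cells. It had 8 probe sets, and these fell into a bright and a dim class. The 5 with a mean signal over 500 moved together (pairwise r 0.946 to 0.998 over the 7 arrays, a description of arrays that share genotype and block) and had log2 differences between -0.93 and -0.66. Of them 1415923_at passed: it read 2853.2, 4856.2, 3117.3 and 2845.4 in KO replicates 1 to 4, against 6245, 5481.7 and 6301.6 in WT, a 1.79-fold fall (log2 difference -0.84 ± 0.17, adjusted p = 0.0446). On this probe set KO replicate 2 sat between the other KO arrays and the WT arrays. On the other 4 it read within the WT range, so that KO and WT overlapped.

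The brightest Ndn probe set, 1435382_at, shows this most plainly. It read 3687.1, 3619.1 and 3434.9 in KO replicates 1, 3 and 4 and 6756.2 in KO replicate 2, against 7422.1, 5823.3 and 6791.2 in the WT arrays. With all arrays the log2 difference was -0.66 ± 0.21 (adjusted p = 0.148), and without KO replicate 2 it was -0.89 (adjusted p = 0.00196). The remaining bright probe sets gave adjusted p = 0.092 (1435383_x_at), 0.0911 (1455792_x_at) and 0.1 (1437853_x_at). All 5 fell without KO replicate 2 (log2 differences -1.18 to -0.89).

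The dim Ndn probe sets did not follow. 1438939_x_at read 230.5 to 308.2 in KO and 234.1 to 242.2 in WT (log2 difference 0.17 ± 0.16), 1456575_at 137.9 to 177.5 in KO and 181.5 to 210.6 in WT (-0.20 ± 0.18), and 1438978_x_at 92.1 to 135.5 in KO and 80.5 to 161.8 in WT (-0.05 ± 0.25). None of these passed (adjusted p = 0.643 to 0.953). The arrays of 1456575_at did not overlap, with the difference in the direction of the bright probe sets.

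Magel2, a further MAGE family gene beside Ndn on chromosome 7, acts with a ubiquitin ligase in protein sorting. Its probe set 1417217_at was dim, at 141.9, 224, 262.9 and 184.5 in KO replicates 1 to 4, against 280.9, 339.9 and 295.4 in WT. The groups did not overlap. The log2 difference of -0.55 ± 0.20 did not pass with all arrays (adjusted p = 0.205) or without KO replicate 2 (-0.60, adjusted p = 0.134).

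Peg3 and Plagl1 encode zinc finger proteins, Plagl1 being known in mice as a regulator of other imprinted genes. For Peg3 the 3 tested probe sets all read higher in KO. On 1433924_at the KO arrays read 7709.5, 7116.2, 7953.5 and 10163.6, against 6188.4, 6274.9 and 6473 in WT. Every KO array was above every WT array (log2 difference 0.37 ± 0.12, adjusted p = 0.164). On 1417355_at the KO arrays read 6189.1, 5354.5, 7546 and 8739, against 3320.5, 5632.4 and 5422.7 in WT (0.55 ± 0.21, adjusted p = 0.211), with WT replicate 1 lowest and KO replicate 2 within the WT range.

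The probe set 1417356_at of Peg3 read 2835.5, 1560.1, 2456.5 and 3644.2 in KO and 1417.7, 1856.3 and 1829.2 in WT (log2 difference 0.56 ± 0.23, adjusted p = 0.261). It rose without KO replicate 2 (0.79, adjusted p = 0.0179), and 1417355_at passed once a term for the deposit block was added to the fit (0.65, adjusted p = 0.0253). The 2 further probe sets of Peg3 were under the filter, at 2.1 to 43.8 in KO and 2.2 to 36.7 in WT.

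Plagl1 had 3 probe sets that disagreed. The brightest, 1426208_x_at, read 5931.7, 10415.7, 10483.4 and 11723.3 in KO replicates 1 to 4, against 10609.8, 11602.8 and 11731.4 in WT (log2 difference -0.28 ± 0.20, adjusted p = 0.549). Only KO replicate 1 stood well below the WT arrays there. The dim 1450533_a_at read 61.2, 167.2, 283.4 and 192.5 in KO, against 253.3, 422 and 428.9 in WT (-1.04 ± 0.36, adjusted p = 0.174), and 1438588_at had the opposite sign, at 138.4 to 212.9 in KO and 92.4 to 150.1 in WT (0.47 ± 0.23, adjusted p = 0.338). None passed with all arrays.

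Dlk1 encodes a membrane protein with EGF-like repeats that holds preadipocytes back from differentiation, also known as Pref-1. Its bright probe set 1449939_s_at read 9066.7, 13135.8, 12927.2 and 15758.4 in KO replicates 1 to 4, against 12557.3, 14991.7 and 13030.8 in WT. The lowest and the highest of the 7 arrays were both KO. The log2 difference was -0.11 ± 0.16 (95% interval -0.47 to 0.25, adjusted p = 0.804). The dim 1442724_at read 70.6 to 198.7 in KO and 54.2 to 141.8 in WT (0.40 ± 0.32, adjusted p = 0.6).

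H19 and Meg3 are long noncoding RNAs, each beside a paternally expressed growth gene, Igf2 and Dlk1. H19 read 20161.1, 19803, 21131.8 and 24591.1 in KO replicates 1 to 4, against 21508.4, 18884 and 21362.8 in WT. These arrays overlapped throughout (log2 difference 0.05 ± 0.11, 95% interval -0.18 to 0.29, adjusted p = 0.859). Igf2, the growth factor gene beside it, read 9297 ± 723 in KO and 10602 ± 557 in WT (-0.19 ± 0.10, adjusted p = 0.378).

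Meg3 had 11 probe sets, of which 10 were tested and none passed (adjusted p = 0.414 to 0.999). The 5 with a mean signal over 500 had log2 differences between -0.19 and 0.08 (pairwise r 0.767 to 0.961 over the arrays). The brightest, 1439380_x_at, read 4698.3, 7721.7, 5238.8 and 5536.7 in KO replicates 1 to 4, against 5897.9, 5328.4 and 5869.3 in WT (0.00 ± 0.15, 95% interval -0.34 to 0.34). On all 5 the array labelled KO replicate 2 was the highest of the 7 and KO replicate 1 the lowest. Without KO replicate 2 the 5 differences ran from -0.37 to -0.10, and none passed. The other bright probe sets were 1452183_a_at (-0.08), 1452905_at (-0.14), 1426758_s_at (0.08) and 1436713_s_at (-0.19). The dim tested ones were 1429257_at (0.30), 1436057_at (-0.02), 1429256_at (0.21), 1428764_at (-0.07) and 1428765_at (-0.31), and 1452906_at, under the filter, read 31.3 to 45 in KO and 31.1 to 52.8 in WT.

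Asb4 encodes an ankyrin-repeat protein with a SOCS box, part of a ubiquitin ligase and known from the placenta and blood vessels. Both of its probe sets were dim. 1433919_at read 106.1, 82.5, 33.7 and 117.6 in KO, against 112.3, 107.9 and 97.2 in WT (log2 difference -0.31 ± 0.30, adjusted p = 0.688), and 1423422_at, under the filter, read 33.6 to 68.3 in KO and 53.8 to 67.7 in WT. The KO arrays lay on both sides of the WT arrays.

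**Figure D2:**
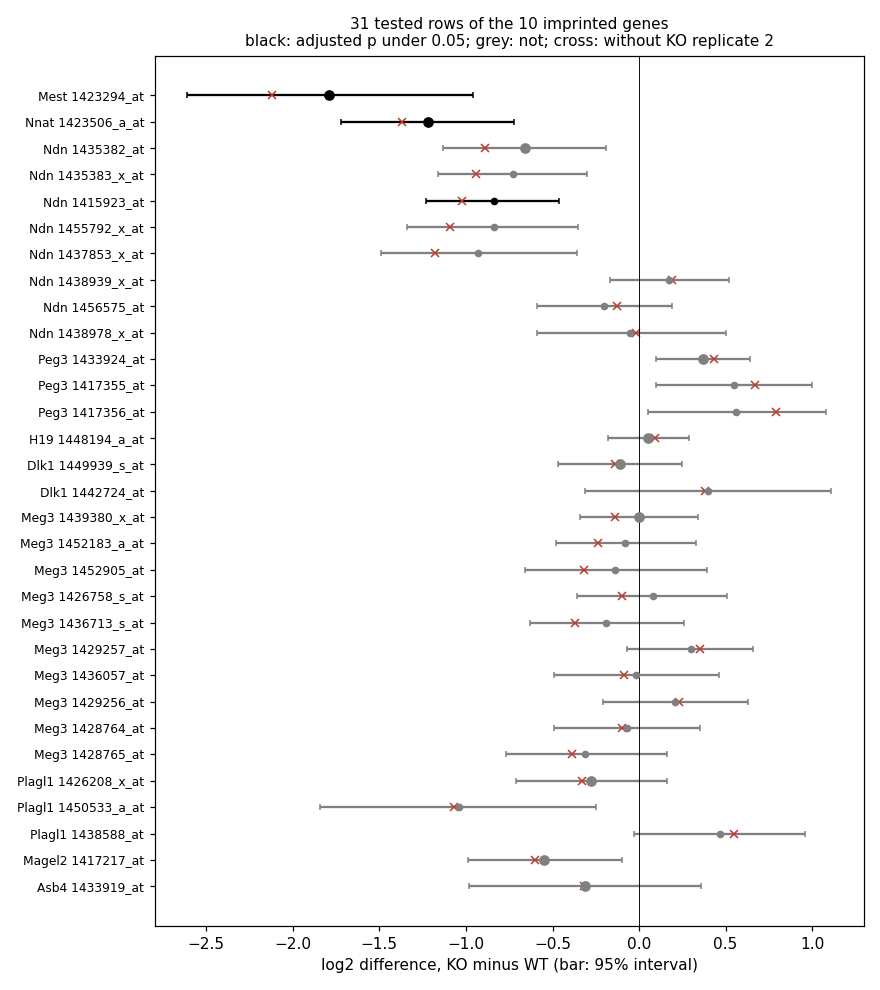
Log2 difference, KO minus WT (horizontal axis), with its 95% interval for the 31 tested probe sets of the 10 genes, grouped by gene (larger points: brightest probe set of the gene). Black points passed (Mest, Nnat and Ndn 1415923_at), grey points did not, and red crosses are the values without KO replicate 2, which lie lower for Mest (-2.12) and Nnat and for the 5 bright Ndn probe sets.

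The array labelled KO replicate 2 was nearer to WT than the other KO arrays for Mest, Nnat and the bright Ndn probe sets, and not for every member. Relative to the WT mean on the log2 scale, Mest was at -2.91, -1.75 and -1.70 in KO replicates 1, 3 and 4 and at -0.78 in replicate 2. Nnat was at -1.22, -1.20 and -1.68 in those 3 and at -0.77 in replicate 2, and Ndn 1415923_at at -1.06, -0.94 and -1.07 against -0.30. KO replicate 1 had the lowest KO values of Mest, of the brightest Dlk1 and Plagl1 probe sets, of the bright Meg3 probe sets, of Magel2 and of 3 of the 5 bright Ndn probe sets. It did not have the lowest of Nnat, H19 or the other bright Ndn probe sets, 1435382_at and 1415923_at.

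**Figure D3:**
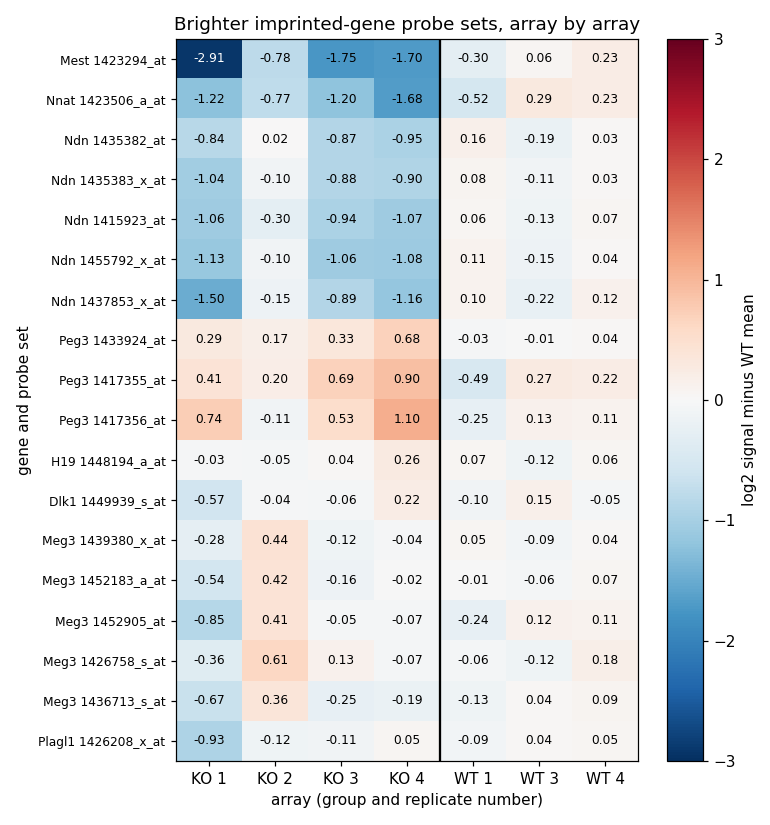
Log2 signal minus the WT mean for each member probe set with a mean signal over 500 (rows) on each array (columns, KO left of WT), blue for lower and red for higher, with the value in each cell. Mest and Nnat are below 0 on all 4 KO arrays, Ndn on KO replicate 2 lies between -0.30 (1415923_at) and 0.02, Meg3 is highest on KO replicate 2, and the brightest Peg3 probe set is above 0 on all 4 KO arrays.

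Further imprinted genes were taken from a list of 56, of which 48 had a probe set and 36 a tested one as the brightest of the gene. By limma 0 of the 36 passed. At an unadjusted p under 0.05 with all arrays, 5 were lower and 1 higher, a share near the 16.5% of all tested. Without KO replicate 2 it was 14 of the 36 in either direction (38.9%), against 21.8% of all tested. The list had a median log2 difference of -0.09 against 0.00 over all tested. Among the brightest were Gnas, the G protein alpha subunit (24507 ± 4170 in KO and 23832 ± 1800 in WT, 0.03 ± 0.13), the membrane protein gene Cd81 (7934 ± 674 in KO and 9261 ± 405 in WT, -0.23 ± 0.10), Dcn, a matrix proteoglycan (-0.33 ± 0.18), and Grb10, an adaptor that dampens insulin receptor signalling (3344 ± 251 in KO and 3922 ± 246 in WT, -0.23 ± 0.10, adjusted p = 0.299). Without KO replicate 2, Slc22a2, an organic cation transporter, fell (-0.96, adjusted p = 0.0148), as did Klf14, a transcription factor gene (-0.99, adjusted p = 0.0476). Of all tested probe sets 7.35% passed without that array.

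The tested genes next to each member on its chromosome, 2 on either side by the RefSeq gene order (GRCm38.p6), were read beside it. Of 32 such neighbours that are not members, 0 fell and 1 rose, Klf13 near Magel2, a Krüppel-like transcription factor gene (1972 in KO and 1165 in WT, log2 difference 0.73, adjusted p = 0.0471). Of all tested probe sets 1.59% passed in either direction. The median of the neighbours was -0.05. Beside Mest, Cep41, a centrosomal protein gene, read 188 in KO and 342 in WT (-0.84, adjusted p = 0.14), Klf14 341 in KO and 552 in WT (-0.74, adjusted p = 0.264), and Copg2, a coatomer subunit gene, 651 in KO and 785 in WT (-0.27, adjusted p = 0.383). The remaining Mest neighbour, Tmem209, read 299 in KO and 328 in WT (-0.12, adjusted p = 0.762). Without KO replicate 2, 2 of the 32 fell (Cep41 and Klf14) and 1 rose, where 7.35% of all tested passed in either direction. Beside Peg3, Usp29, a ubiquitin protease gene that starts at the same promoter region on the other strand, read 154 in KO and 89.4 in WT (0.65, adjusted p = 0.33). Rian and Mirg, noncoding RNAs downstream of Meg3, were at -0.29 and -0.31 and did not pass. None of the other neighbours passed. Around Nnat, Src, Ctnnbl1 and Vstm2l were at -0.07, 0.06 and -0.31, and around Ndn and Magel2, Ube3a, Atp10a and Otud7a at 0.10, -0.22 and 0.16. Zim1, Zfp28 and Zim3 near Peg3 were at 0.26, 0.08 and 0.25. Near H19, Mrpl23, Tnnt3 and Igf2os were at -0.06, -0.18 and -0.03, and before Dlk1, Wdr25 and Wars at -0.36 and -0.21. Sf3b5, Stx11, Zc2hc1b and Ltv1 around Plagl1 lay between -0.07 and 0.03, and Pon2, Pon3, Pdk4 and Sem1 around Asb4 between -0.10 and 0.25.

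The 5 genes whose brightest probe set was most like Mest across the 7 arrays, among 13093 ranked, were Sh3bgrl3 (Pearson r = 0.995), Ostc, a subunit of the oligosaccharyltransferase (0.993), Klhl4 (0.992), Pign, an enzyme of GPI anchor synthesis (0.992), and Cdkn3, a cell cycle phosphatase gene (0.99). With 7 arrays and so many genes, such values are a description. Sh3bgrl3 read 953.6, 1826.7, 1277.8 and 1430.4 in KO replicates 1 to 4, against 1987.9, 2258.3 and 2413.6 in WT, the same order of arrays within each group as Mest. None of the 5 passed with all arrays (adjusted p = 0.0513 to 0.435), while Sh3bgrl3, Ostc and Klhl4 passed without KO replicate 2.

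Growth genes that are high before birth and are not members (22 listed, 14 tested) had 0 past the threshold by limma and a median of -0.20. At an unadjusted p under 0.05, 2 were lower and 1 higher, against 16.5% of all tested. Midkine (Mdk), a growth factor, read 209.7, 258.1, 202.9 and 188.9 in KO, against 329.1, 412.7 and 350.6 in WT (-0.69, adjusted p = 0.0672), and fell without KO replicate 2 (-0.77, adjusted p = 0.02). Ptn, also lower unadjusted, was at -0.96 (adjusted p = 0.267, limma), with KO replicate 2 within the WT range. It did not pass without that array (-1.29, adjusted p = 0.0537), and its other tested probe set was at 0.17. Of the brightest, Sox4 was at -0.24, E2f5 at 0.19, Gpc3 at 0.27, Igf2bp3 at -0.04 and Fgfr2 at 0.57, none past the threshold. Afp read 387.5 to 7680.5 in KO and 1004 to 11631.8 in WT, a spread within each genotype far wider than the difference. Of proteins that set or keep methylation marks (22 listed, 17 tested), 0 passed (1 lower and 0 higher unadjusted), with a median of -0.05. The 1 lower was Uhrf1, at -0.49 ± 0.18 (adjusted p = 0.195, limma), with its other tested probe set at -0.55. Trim28, the corepressor that protects imprints, was at 0.22 (adjusted p = 0.309), the DNA methyltransferase gene Dnmt3a at -0.03 and Ctcf, the insulator protein gene, at -0.05. Zfp445, Ehmt2 and Setdb1 were at -0.07, 0.20 and 0.04. Zfp57 and Dnmt3l read under 30.6 on every array.

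**Figure D4:**
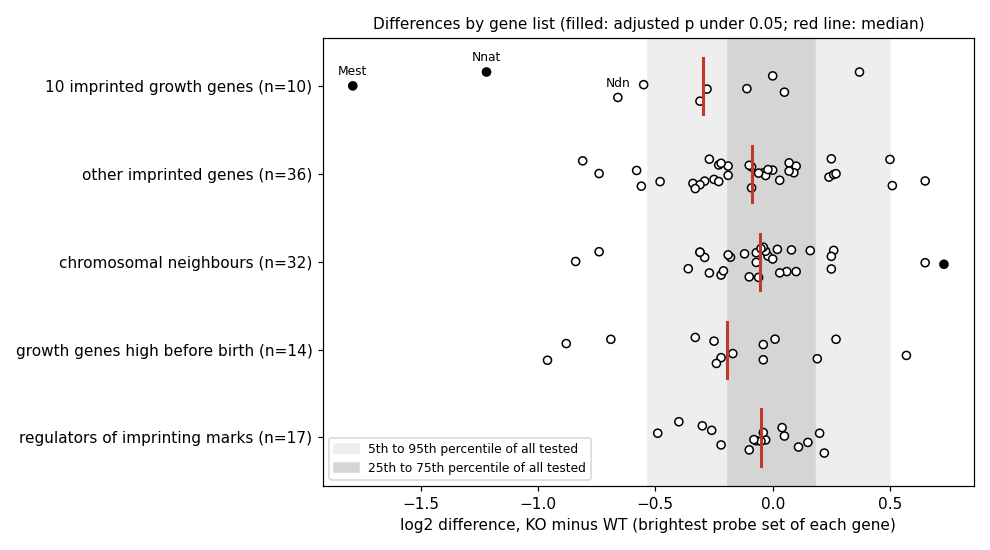
Log2 difference, KO minus WT (horizontal axis), of the brightest tested probe set of each gene in 5 lists, with the list median (red line) and the spread of all tested probe sets (grey bands). Filled points passed: Mest and Nnat among the 10 genes and Klf13 among the neighbours. The medians were -0.29 for the 10 genes, -0.09 for the other imprinted genes, -0.05 for the neighbours, -0.20 for the growth genes and -0.05 for the regulators.

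Markers of the cell types a brown fat dissection can hold were read beside these values. Of all tested probe sets, 1.59% passed in either direction and 16.5% had an unadjusted p under 0.05 by limma. Without KO replicate 2, 7.35% of all tested passed. Brown adipocyte markers were present (Ucp1, the uncoupling protein of heat production, at 31505 in KO and 30978 in WT), with 0 of 11 past the threshold, 0 at an unadjusted p under 0.05 by limma, and a summed signal of 151906 to 196331 in KO and 159531 to 182552 in WT. Preadipocyte and progenitor markers had 1 of 15 higher, Gsn, an actin-severing protein (13330 in KO and 8174 in WT, adjusted p = 0.0228), and 0 lower. The 4 other tested probe sets of Gsn disagreed, at -0.63 to 0.89, and 2 of them passed. The list summed to 25510 to 29233 in KO and 20165 to 24558 in WT, and its median log2 difference was -0.06. Gsn carried that separation: without it, a sum taken after seeing the data, the list gave 13802 to 14892 in KO and 12701 to 15982 in WT, which overlap. At an unadjusted p under 0.05, 2 of the 15 were lower and 1 higher. Cd34, a progenitor and endothelial surface marker, was at -0.58 (adjusted p = 0.13) and fell without KO replicate 2 (-0.73, adjusted p = 0.0117, limma). Anxa3 of the same list also fell without that array (-0.69, adjusted p = 0.00761), and Gsn was again higher (0.68, adjusted p = 0.00929).

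Endothelial and mural markers had 1 of 13 lower, Acta2, the smooth muscle actin (2430.6, 3110.1, 2684.9 and 2726.8 in KO, against 3719, 4378.6 and 4131.6 in WT, -0.57, adjusted p = 0.0393). The list summed to 18830 to 22053 in KO, below the 23625 to 29385 of WT. Much of that gap came from Rgs5 (5341 in KO and 8495 in WT) and Acta2, the brightest of the list. At an unadjusted p under 0.05, 5 of the 13 were lower and 0 higher (Rgs5, Acta2, Cdh5, Kdr and Emcn), where 16.5% of all tested passed in either direction. The median of the list was -0.30, with Tek and Esam at 0.13 each and the other markers below 0. Rgs5, a pericyte marker, was at -0.67 (adjusted p = 0.0593). Without KO replicate 2, Rgs5 (-0.78, adjusted p = 0.00714, limma) and Acta2 (-0.63, adjusted p = 0.00768) were lower, and no other marker of the list passed. Skeletal muscle markers had 0 of 17 past the threshold and summed to 33172 to 61407 in KO and 40962 to 68836 in WT, nerve and Schwann cell markers 0 of 8 with 3174 to 5624 in KO and 4894 to 6480 in WT, and macrophage markers 0 of 7 with 7962 to 13168 in KO and 9606 to 10107 in WT. Unadjusted, 1 muscle marker, 0 nerve markers and 1 macrophage marker were higher and 0 of these lists lower. Without KO replicate 2 the macrophage marker Lyz2 was higher (0.68, adjusted p = 0.0181, limma), and no other marker of these lists passed. Myf5, of muscle precursors, read under 30.6 on every array. The part of these cell types in the fall of Mest, Nnat and Ndn was not tested.

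The 3 calls lay close to the threshold. Without a trend in the variance model or without the filter on dim probe sets, 0 of the 3 passed, and leaving out any array but KO replicate 2 and WT replicate 1 left 0 member probe sets past the threshold. Without WT replicate 1 only Nnat passed (adjusted p = 0.049). The log2 differences kept their sign under all 18 alternatives, at -2.12 to -1.41 for Mest, -1.70 to -1.06 for Nnat and -1.02 to -0.77 for Ndn 1415923_at. Mest passed in 8 of these 18, Nnat in 11 and Ndn 1415923_at in 9.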

How the data were processed

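The authors' deposited values are linear signal intensities per probe set and array. Per the submitters' processing notes GCOS 1.2 was used, with settings that the labels do not state. The 7 arrays had a mean of 497.2 to 497.8 after trimming 2% at each end, so their scaling was kept. Of 45101 probe sets 64 controls were left out. The probe table gave 1 gene symbol for 34945 of the rest, several names for 932 and no name for 9160. Current symbols came from gene identifiers of RefSeq (GRCm38.p6).

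The scale was log2(signal + 30.6), with 30.6 the 20th percentile of the signals, which understates changes of dim probe sets. Probe sets under the 40th percentile of mean log2 signal were left out. KO and WT were compared with limma 3.58.1 under R 4.3.3 (eBayes with a variance trend, two-sided, no covariate), with Benjamini-Hochberg adjustment over all 27022 tested and a threshold of 0.05. The fit was tested on simulated data. Replicates are numbered samples whose labels do not state separate animals, and p-values reflect only how far these arrays spread, which may be technical. The number of arrays limits the precision.

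The 10 genes and the gene lists were chosen with earlier results of these data known. The text names every member probe set, list members that passed, up to 6 of the brightest of each gene list (for cell type markers, only some of these), the 2 nearest tested neighbours on each side, and the 5 genes most like Mest. Mdk, Ptn, Emcn, Anxa3, Uhrf1, Slc22a2, Myf5, Zfp57 and Dnmt3l, where outside this rule, were picked with their values in view. In lists, a gene was represented by its brightest probe set. Alternatives changed the filter, scaling, offset, variance model, array weights, block and arrays used.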

Additional observations from a re-analysis of the deposited data

Results flagged for a closer look

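Among the 4 KO arrays, the gap between 1 array and the next exceeded the 95% limit of Dixon's test for 5 member probe sets. Chance alone gives about 1 in 20 groups, and the Ndn probe sets read the same transcript, so they are not separate instances. For Ndn the array labelled KO replicate 2 was the highest, at 6756.2 on 1435382_at, 5829.3 on 1435383_x_at, 4856.2 on 1415923_at and 4415.7 on 1455792_x_at, with gaps of 0.865 to 0.951 of the range of the KO arrays. The other KO arrays read 3687.1, 3619.1 and 3434.9 on 1435382_at. For Peg3, KO replicate 4 was the highest on 1447732_x_at, at 43.8, a probe set under the filter.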

How the results depend on the processing

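Over all probe sets 431 passed, and the count was 1312 with array weights, 236 with median scaling, 100 without the filter, 6 without the variance trend, 726 in the second deposit block alone and 7 to 1986 when 1 array was left out (1986 without KO replicate 2, and at most 40 without any other). Member probe sets past the threshold numbered 3, against 7 with array weights, 0 without the filter and 0 without the trend (12 and 12 at an unadjusted p under 0.05, as 12.2% and 15.2% of all probe sets did), 7 in the second block alone and 0 to 8 with 1 array left out (8 without KO replicate 2, 0 without KO replicate 1, 3 or 4 or WT replicate 3 or 4, 1 without WT replicate 1). Other imprinted genes numbered 0, against 1 with array weights, 1 with the deposit block as a covariate, 1 in the second block alone and 0 to 2 with 1 array left out. Growth genes numbered 0, against 1 with array weights, 1 with the stricter filter and 0 to 1 with 1 array left out. Cell type markers numbered 2, against 5 with array weights, 0 with median scaling, 0 without the filter, 0 without the trend (10, 10 and 11 unadjusted), 5 in the second block alone and 0 to 6 with 1 array left out. Regulators of imprinting marks stayed at 0 throughout. Where fewer arrays or more probe sets entered, the construction itself changed, and otherwise the cause was not tested. With the replicate number as a block the counts were 2183 over all, 11 for members, 4 for other imprinted genes, 3 for growth genes and 10 for markers. KO replicate 2 has no WT array of its number, so in that fit it adds nothing to the difference between groups. The difference of Mest was -2.12 both there and without KO replicate 2, an equality fixed by the construction of that fit. It says nothing on why the counts were larger, which was not tested. The deviations of same-numbered arrays correlated at 0.0567, 0.149 and 0.105, too low in 1 pair to take the numbers as pairs, though 5 of 6 arrays correlated best with their own number. Of 550 values of members under alternatives, 26 lost a call, 22 gained one and 0 passed with the opposite sign. Signals near background limit Asb4, Magel2 and the dim probe sets of Ndn, Meg3, Dlk1 and Plagl1.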
